A study of Mus musculus with 4 samples.

Results

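The genes described here are 10 members of the LIF-STAT3 pathway: the receptor subunits Lifr and Il6st, the transcription factor Stat3, the feedback inhibitors Socs1, Socs2, Socs3 and Cish, and the kinases Pim1, Pim2 and Pim3. They were found by their gene names in a table of 32285 genes, and all 10 were present and passed the filter on low counts. The genes were chosen by their expression levels in these same libraries of both strains, which were already known, so their strain differences are given as descriptions, with no test. RNA was sequenced from GS cells, which are wild-type spermatogonia grown in culture from 10-day-old mouse testes, in 2 libraries from strain C57BL/6 (B6) and 2 from strain 129. The B6 titles also carry the mark F0, which the labels do not explain. Each library held 20375086 to 25374801 counts, and levels are in CPM, a gene's count relative to the size of its library, in the order replicate 1, replicate 2. The labels do not say whether the 2 libraries of each strain were separate cultures or mice. Every error and p-value here thus rests on the spread between these libraries, which may be technical.

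Leukaemia inhibitory factor (LIF) binds Lifr, which pairs with Il6st (gp130), the subunit shared by the receptors of the interleukin-6 family. JAK kinases bound to the receptor then phosphorylate Stat3, which enters the nucleus and switches on genes that include Socs3, an inhibitor that binds the receptor and its JAK kinases and shuts the signal off. Cish and Socs2 are best known as targets of the related factors Stat5a and Stat5b, Socs1 as a target of interferon signalling, and Pim kinases as kinases whose activity follows their amount because they need no activating partner. LIF sustains self-renewal of mouse embryonic stem cells and was among the factors with which GS cells were first derived. The sources used here do not say whether the medium of these cultures contained LIF.

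STAT factors bind palindromes of the form TTCNNNGAA, which reads the same on both strands. Promoter windows of RefSeq (GRCm38.p6, 250 bases before to 50 after a gene's start) were found for 9 of the 10 genes, all except Socs2. The motif was present in a window of 2 of these 9 genes, Socs3 and Cish, and in 9.55% of the 27025 genes with a window. The stretches below show these matches and the Pim1 promoter. Pim1 was picked because it and Socs3 differed most between the strains, in opposite directions. The other genes with a window also held no match, and a link between motif and strain difference was not tested. Capitals mark the motif, the Socs3 and Pim1 stretches end before the first exon annotated in the window, and each is written 5′ to 3′ on the gene's strand. A match is only a match of letters and not a measured binding site.
Socs3, chr11:117969452-117969616, minus strand: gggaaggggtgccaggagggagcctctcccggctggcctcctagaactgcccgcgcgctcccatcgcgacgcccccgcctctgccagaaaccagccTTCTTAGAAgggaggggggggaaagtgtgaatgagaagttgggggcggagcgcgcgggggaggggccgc
Cish, chr9:107296654-107296682, plus strand: cagttTTCCTGGAAagTTCTTGGAAatct
Pim1, chr17:29490535-29490752, plus strand: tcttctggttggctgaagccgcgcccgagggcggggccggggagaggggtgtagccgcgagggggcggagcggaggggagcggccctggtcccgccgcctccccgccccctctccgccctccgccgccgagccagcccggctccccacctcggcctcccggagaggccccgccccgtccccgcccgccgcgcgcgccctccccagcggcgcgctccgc
The single Socs3 match began 154 bases before the RefSeq start, and its stretch lies between exons of the longest GENCODE model of Socs3, which starts further upstream. Cish held a pair of matches, beginning at bases 1 and 12 of the RefSeq transcript, within the first exon of the longer GENCODE gene model. Neither of the 2 Pim1 windows held the motif.

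Among the feedback inhibitors, Socs3 was higher in 129. Socs3 (ENSMUSG00000053113, chr11:117966079-117970047, minus strand, no overlapping gene) stood at 102 and 115 CPM in B6 and at 319 and 316 CPM in 129. Both 129 libraries lay above both B6 libraries and close to each other. The difference was 2.94-fold (log2 fold change of 129 over B6 1.55, standard error, SE, 0.17). In a bulk culture fewer cells of a type and less RNA per cell cannot be told apart, here and in the values that follow.

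Socs2 (ENSMUSG00000020027, chr10:95385362-95417180, minus strand) was the scarcest of the 10 genes, with only 48 and 46 counts in B6, against 144 and 74 in 129. This was 1.93 and 2.28 CPM in B6 and 6.96 and 3.51 CPM in 129. The strains did not overlap, but the 129 libraries lay apart from each other, and the log2 fold change of 1.31 (SE 0.54) became 0.74 without 129 replicate 1 and 1.73 without 129 replicate 2. Socs1 (ENSMUSG00000038037, chr16:10782240-10785536, minus strand) was slightly lower in 129, with 27.6 and 32.1 CPM in B6 and 21.6 and 24.7 CPM in 129 (log2 fold change -0.37, SE 0.28). Cish (ENSMUSG00000032578, chr9:107296026-107302784, plus strand) stood at 11.25 and 13.7 CPM in B6 and 11.55 and 14.3 CPM in 129, so its strains overlapped (log2 fold change 0.055, SE 0.37). Of the 4 inhibitors, Socs3 and Socs2 were thus higher in 129, Socs1 lower, and Cish on the same level within its spread.

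The Pim kinases, serine/threonine kinases that favour survival and growth, also went in different directions. Pim1 (ENSMUSG00000024014, chr17:29490753-29496112, plus strand) stood at 372 and 452 CPM in B6 and at 98.4 and 77.8 CPM in 129. Both 129 libraries lay far below both B6 libraries. Pim1 was 4.68-fold lower in 129 (log2 fold change -2.23, SE 0.21), the widest difference among the 10 genes. Pim3 (ENSMUSG00000035828, chr15:88862186-88865726, plus strand) was higher in 129, with 86.4 and 79.5 CPM in B6 and 143 and 140.4 CPM in 129 (1.71-fold, log2 fold change 0.77, SE 0.18). Its strains did not overlap either. Pim2 (ENSMUSG00000031155, chrX:7878262-7883432, plus strand) overlapped between strains, at 17.8 and 16.98 CPM in B6 and 16.5 and 18.97 CPM in 129 (log2 fold change 0.031, SE 0.32).

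**Figure D1:**
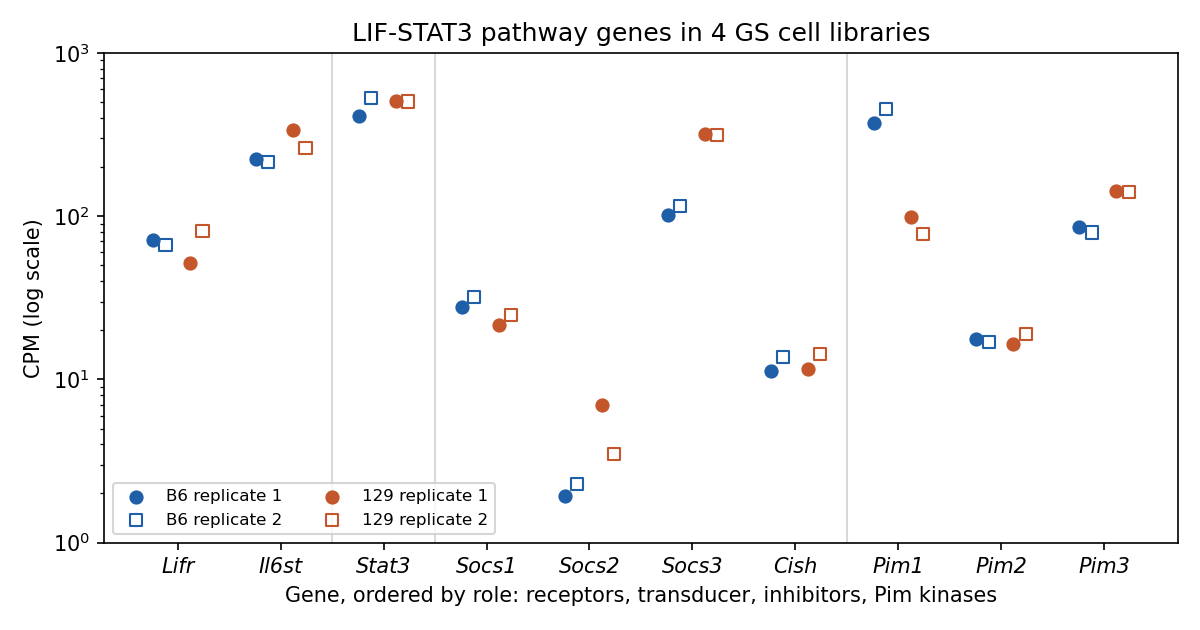
CPM of each of the 10 genes (log scale) in each library, with B6 in blue, 129 in orange, replicate 1 as filled circles and replicate 2 as open squares. Socs3 sits at 102 and 115 CPM in B6 and 319 and 316 CPM in 129, Pim1 at 372 and 452 CPM in B6 and 98.4 and 77.8 CPM in 129, while Stat3, Lifr, Cish and Pim2 overlap.

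The receptor subunits and Stat3 differed less than Socs3 and Pim1. Il6st (ENSMUSG00000021756, chr13:112464070-112510086, plus strand) stood at 223 and 214 CPM in B6 and 339 and 263 CPM in 129 (log2 fold change 0.46, SE 0.19), with both 129 libraries above both B6 libraries. Lifr (ENSMUSG00000054263, chr15:7090614-7197489, plus strand) stood at 71.1 and 66.8 CPM in B6, between the 51.45 and 81.6 CPM of the 129 libraries. Its log2 fold change of -0.052 (SE 0.27) was -0.42 without 129 replicate 2 and 0.25 without 129 replicate 1, so the direction turned with the library left out. Stat3 (ENSMUSG00000004040, chr11:100885098-100939540, minus strand) stood at 410.2 and 527 CPM in B6 and 511 and 505 CPM in 129 (log2 fold change 0.12, SE 0.19), and its strains overlapped. Exons of Stat3 overlap Stat5a, those of Cish overlap Gm17040 and Gm17041, and those of Pim1 overlap Gm26885, each on the opposite strand. How strand was treated in counting is not stated in the sources used here, so reads of these partners cannot be told apart from the genes' own.

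Of the 10 genes, 1 (Socs3) was called higher and 1 (Pim1) lower in 129 by edgeR's quasi-likelihood test at an adjusted p under 0.05, against 2.54% of the 16005 genes tested in either direction. As the genes were chosen with this contrast known, nothing is read from that count. Neither was called when B6 replicate 1 or B6 replicate 2 was left out, where edgeR called 0 and 1 of all genes. The count was 1 without 129 replicate 1, 2 without 129 replicate 2, and 3 with DESeq2, which also called Pim3, and with no filter. The libraries of the strains did not overlap for 6 of the 10 genes, against 60.1% of all genes tested, with 129 above B6 for 4 of them (31% of all genes) and below for 2 (29.2% of all genes). The median log2 fold change was 0.085 over the 10 genes and 0.014 over all genes tested.

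**Figure D2:**
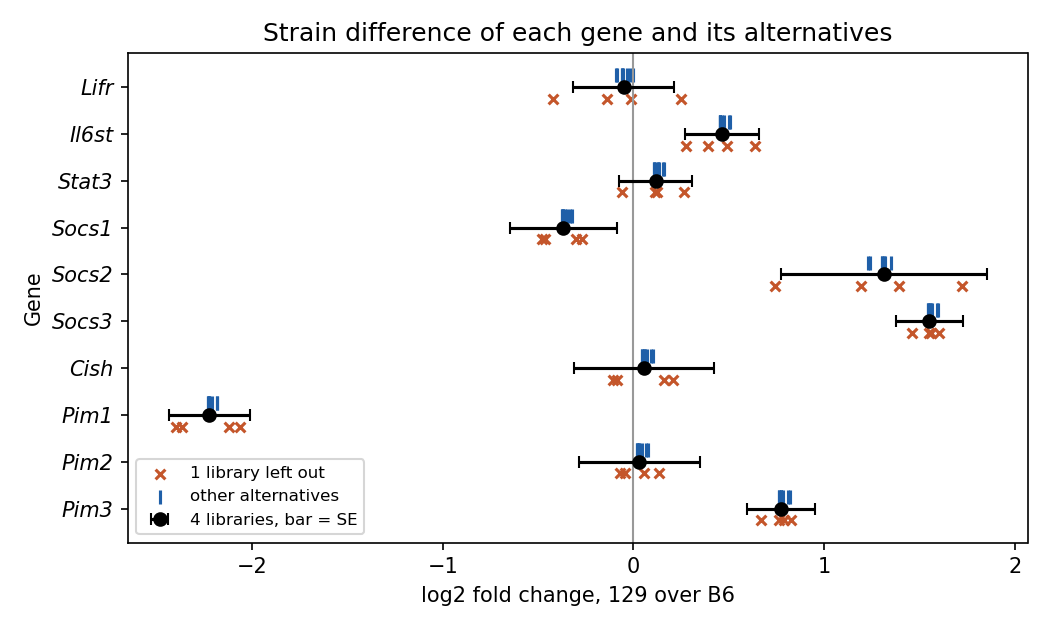
Log2 fold change of 129 over B6 for each of the 10 genes (black circles, bars are the SE), with the values after leaving out 1 library (orange crosses) and under the other alternatives (blue ticks). Pim1 stays between -2.40 and -2.06 and Socs3 between 1.46 and 1.60, while Lifr, Stat3, Cish and Pim2 have values on both sides of 0.

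Levels of different genes were compared per kb of exon. Exon lengths came from GENCODE release M21 and count each base in an exon of any annotated transcript once. Where the cells use only part of these bases, the level per kb comes out too low. In B6 the order was Pim1 (122.5 ± 17.0 CPM per kb, mean ± SD, n = 2), Stat3 (49.2 ± 8.70), Socs3 (37.4 ± 3.23), Pim3 (34.2 ± 2.01), Il6st (19.7 ± 0.577), Socs1 (10.3 ± 1.08), Lifr (6.40 ± 0.280), Pim2 (6.21 ± 0.196), Cish (1.94 ± 0.266) and Socs2 (0.221 ± 0.0259). Stat3 and Socs3, Socs3 and Pim3, and Lifr and Pim2 lay within 1 SD of each other on both sides. In 129 Socs3 came first at 109.9 ± 0.792 CPM per kb, followed by Pim3 (58.4 ± 0.825), Stat3 (53.3 ± 0.471), Il6st (27.15 ± 4.84) and Pim1 (26.2 ± 4.33). Socs1 (7.95 ± 0.745), Pim2 (6.35 ± 0.619), Lifr (6.17 ± 1.98), Cish (2.02 ± 0.306) and Socs2 (0.549 ± 0.256) came after them. In this order the neighbours Il6st and Pim1, and Pim2 and Lifr, overlapped within 1 SD, as did Socs1 and Lifr. Among all genes tested, Socs3 moved from percentile 91.2 of the level per kb in B6 to 98.6 in 129, and Pim1 from 98.7 to 86.1. In both strains Il6st was more abundant per kb than its partner Lifr.

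The genes with the pattern most like that of Socs3 over the 4 libraries were Ephb6, Tmem143, Foxp4, Fam189b and Pcbp4. They were taken as the nearest by Euclidean distance between centred log2 CPM, among 10261 other genes whose mean was 10 CPM or more, at distances of 0.056, 0.062, 0.090, 0.15 and 0.17. Ephb6, an Eph-family receptor, stood at 13.3 and 14.5 CPM in B6 and 39.8 and 39.5 CPM in 129. The other 4 were likewise higher in both 129 libraries than in both B6 libraries, and the measure rests on 4 libraries only.

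Other genes of cytokine signalling were taken from 10 lists by role, with 109 genes beside the 10, of which 96 were tested. By edgeR's test over all genes, 6 of the 96 rose and 2 fell in 129 and 88 did not pass, with a median log2 fold change of 0.32, against 1.67% and 0.862% of all genes tested called higher and lower. DESeq2 called 15 higher and 8 lower, and limma-voom 5 and 2, while over all genes they called 15.3% and 1.54%. At an unadjusted p under 0.05 edgeR had 23 of the 96 higher and 12 lower, against 27.3% of all genes tested in either direction, 15.3% higher and 12% lower, which is also the background of the same counts for single lists.

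The ligands of the interleukin-6 family had a list median of 0.75 over 7 tested genes. Lif and Il6, named after their values were seen, did not pass. Lif stood at 33.7 and 37.8 CPM in B6 and 81.9 and 14.3 CPM in 129 (log2 fold change 0.43, SE 0.72), so the 129 libraries lay on either side of B6. Il6 stood at 18.4 and 22.1 CPM in B6 and 80.3 and 17.4 CPM in 129 (1.27, SE 0.67). Osm, Ctf2 and Il27 had too few counts to be tested.

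The other receptors that pair with Il6st had 0 calls among 5 genes by edgeR (list median -0.24), with 1 higher and 1 lower at an unadjusted p under 0.05. DESeq2 called Osmr higher and Cntfr lower, and limma-voom called 0. Osmr, the oncostatin M receptor, stood at 32.5 and 29.2 CPM in B6 and 171 and 49.7 CPM in 129 (log2 fold change 1.84, SE 0.55), and Il6ra at 26.96 and 23.8 CPM in B6 and 21.2 and 21.6 CPM in 129 (-0.24, SE 0.29). Among 15 other cytokine receptors tested (list median 0.42), Csf2rb, the shared beta subunit for the cytokines GM-CSF, IL-3 and IL-5, rose from 0.161 and 0.297 CPM in B6 to 48.2 and 16.4 CPM in 129 (a log2 fold change of 7.13 with SE 0.78, adjusted p = 0.0336 by edgeR). It shares sequence with the neighbouring Csf2rb2, so reads may have been split between these genes.

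Of the 4 JAK kinases (list median 0.20), Jak3, which serves receptors with the common gamma chain, rose from 3.13 and 3.07 CPM in B6 to 38.0 and 21.9 CPM in 129 (a log2 fold change of 3.27 with SE 0.43, adjusted p = 0.0353 by edgeR). Jak3 overlaps Insl3 on the same strand, and Insl3 was under 1 CPM. Jak1, Jak2 and Tyk2, the kinases used by Il6st, had log2 fold changes of 0.21 (SE 0.20), 0.18 (SE 0.22) and 0.058 (SE 0.21) and did not pass. Among 5 other STAT genes (list median 0.36) edgeR called 0, with 2 higher at an unadjusted p under 0.05, DESeq2 called Stat6 and limma-voom 0. Stat2, which carries interferon signals, stood at 29.6 and 51.2 CPM in B6 and 85.5 and 61.3 CPM in 129 (0.86, SE 0.33).

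The 4 remaining SOCS genes (list median -0.13) had 0 calls by edgeR, 1 lower at an unadjusted p under 0.05, 1 call by DESeq2 (Socs7) and 0 by limma-voom. Socs7 stood at 194 and 172 CPM in B6 and 98.2 and 121 CPM in 129 (log2 fold change -0.74, SE 0.19), and Socs5 at 43.4 and 69.9 CPM in B6 and 86.4 and 73.7 CPM in 129 (0.50, SE 0.28). Of 11 other negative regulators tested (list median -0.14) edgeR called 0, with 2 higher and 1 lower at an unadjusted p under 0.05, DESeq2 called 2 higher and 1 lower and limma-voom 0. The ubiquitin ligase gene Cbl stood at 220.4 and 221 CPM in B6 and 109.5 and 136 CPM in 129 (-0.85, SE 0.19), and the phosphatase gene Ptpn11 at 179 and 164 CPM in B6 and 223 and 185 CPM in 129 (0.25, SE 0.18). With Socs1, Socs4 and Socs7 lower and Socs2, Socs3 and Socs5 higher in both 129 libraries than in both B6 libraries, the SOCS family showed no single direction.

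Of 29 tested STAT3 target genes 3 rose, 1 fell and 25 did not pass, with a median log2 fold change of 0.34. Bcl3, an IkB-family coactivator, rose from 4.86 and 9.70 CPM in B6 to 64.8 and 69.65 CPM in 129 (a log2 fold change of 3.21 with SE 0.39, adjusted p = 0.034 by edgeR). As with Socs3, its 129 libraries lay close together. Lrg1, a secreted acute-phase glycoprotein, rose from no count in B6 to 23.3 and 5.55 CPM in 129 (adjusted p = 0.0408 by edgeR). Taking 3 counts over both B6 libraries as the floor, it was at least 217-fold higher, or at least 83.4-fold higher without 129 replicate 1 and 351-fold without 129 replicate 2. Lbp, the lipopolysaccharide-binding protein, rose from 1.53 and 3.22 CPM to 37.7 and 14.65 CPM (3.47, SE 0.64, edgeR adjusted p = 0.0498), and its adjusted p ranged up to 0.0723 over the alternatives that kept all libraries. Tfcp2l1, a transcription factor that acts downstream of Stat3 in embryonic stem cells, fell from 78.2 and 67.97 CPM to 15.7 and 19.96 CPM (-2.03, SE 0.25, edgeR adjusted p = 0.034). Among known Stat3 targets, Socs3, Bcl3, Lrg1 and Lbp were thus higher, and Pim1 and Tfcp2l1 lower, in both 129 libraries. Of the 29 tested genes of the list, 10 lay above and 6 below B6 in both 129 libraries. Over all genes tested these shares were 31% and 29.2%. The part of Stat3 in these values was not tested.

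Of 8 tested STAT5 target genes 1 fell and 7 did not pass (median 0.55). Igfbp3, a carrier of insulin-like growth factors, fell from 79.4 and 94.7 CPM in B6 to 7.97 and 7.49 CPM in 129 (a log2 fold change of -3.49 with SE 0.25, adjusted p = 0.0305 by edgeR). Cish and Socs2, the STAT5 targets among the 10 genes, had log2 fold changes of 0.055 and 1.31. Of 13 Pim substrates and partners (list median 0.37) edgeR called 0, with 4 higher and 3 lower at an unadjusted p under 0.05, DESeq2 called 2 higher and 2 lower and limma-voom 0. Foxo3, a transcription factor that Pim kinases can phosphorylate, stood at 315 and 315 CPM in B6 and 176 and 191 CPM in 129 (-0.78, SE 0.17), and the translation factor gene Eif4b at 478 and 357 CPM in B6 and 481 and 518 CPM in 129 (0.26, SE 0.20). All 8 calls outside the 10 genes were lost when either B6 library was left out, and without 129 replicate 1 only Csf2rb and Igfbp3 passed, while without 129 replicate 2 all 8 passed. Their directions were the same each time.

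**Figure D3:**
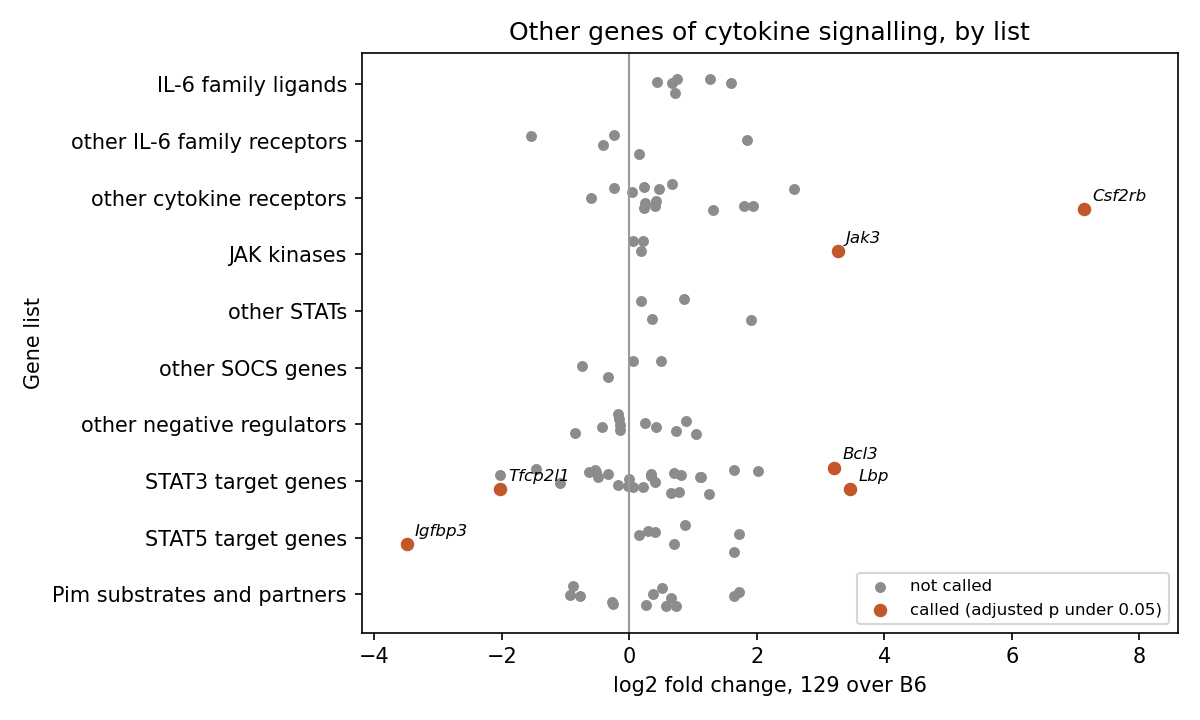
Log2 fold change of 129 over B6 for the tested genes of 10 lists, each point a gene, with genes called by edgeR in orange and others in grey, spread vertically only for legibility. A gene on several lists appears in each, and Lrg1 (no count in B6) and genes not reported here are not drawn. The calls range from Igfbp3 at -3.49 to Csf2rb at 7.13.

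The ligands differed more between the 2 libraries of 129 than Socs3 or Pim1 did. In 129, replicate 1 over replicate 2 gave a log2 ratio of 2.51 for Lif, 2.2 for Il6 and 1.78 for Osmr, but 0.015 for Socs3, 0.029 for Pim3, 0.018 for Stat3 and 0.34 for Pim1. Among the 10 genes Socs2 (0.97) and Lifr (-0.66) had the widest gaps, in opposite directions. Of the 96 other genes of the pathway, 22.9% were at least 2-fold higher in 129 replicate 1 than in replicate 2, against 11% of all genes tested, and 0 of them were at least 2-fold lower, against 1.91%. In B6, replicate 2 had more Irf1, an interferon-induced factor (280.0 and 468 CPM in B6, 243.5 and 240.1 CPM in 129), than replicate 1, and Socs1 was 27.6 and 32.1 CPM in the same libraries.

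Marker genes of other cells also differed between the libraries. Markers of fibroblasts, of which 15 of 15 were detected, summed to 6105 and 4098 CPM in B6 and 7814 and 3180 CPM in 129. Sertoli cell markers summed to 64.0 and 44.3 CPM in B6 and 358 and 163 CPM in 129, with Amh, Cldn11 and Fshr under 1 CPM, and endothelial markers to 15.2 and 20.8 CPM in B6 and 198 and 76.5 CPM in 129, with Tie1, Emcn, Esam and Cldn5 under 1 CPM. Macrophage markers summed to 29.8 and 28.5 CPM in B6 and 51.0 and 19.4 CPM in 129, with C1qa, C1qb, C1qc and Ptprc under 1 CPM, peritubular markers to 80.5 and 23.4 CPM in B6 and 92.2 and 39.9 CPM in 129, and Leydig cell markers to 4.203 to 9.04 CPM with Cyp11a1, Cyp17a1, Hsd3b1, Insl3 and Lhcgr under 1 CPM. Of the 12 germ cell markers all were detected and summed to 3650 and 3883 CPM in B6 and 2792 and 3581 CPM in 129. The Sertoli and endothelial sums were higher in both 129 libraries, and both lay far apart between the 129 libraries. The most abundant genes in them were Clu, Kitl and Wt1, and Eng, Cdh5 and Pecam1. Of 9 tested Sertoli markers 7 lay above and 1 below B6, and of 5 tested endothelial markers 3 and 0, against 31% and 29.2% of all genes tested. By edgeR 1 Sertoli and 2 endothelial markers were called higher and 0 lower. DESeq2 called 2 Sertoli markers higher and 1 lower, and 2 endothelial markers higher. The germ cell sum was lower in both 129 libraries. In 129 replicate 2 it was only slightly lower, at 3581 against 3650 CPM in B6 replicate 1. Of its 12 markers, 8 lay below and 2 above B6, against 29.2% and 31% of all genes tested. Of these 12, edgeR called 1 higher and 1 lower. The fibroblast sums overlapped between the strains. Of the 15 markers 6 lay above and 7 below B6 in both 129 libraries, against 31% and 29.2% of all genes tested. Of these 15, edgeR called 1 higher and 0 lower, with 6 higher and 5 lower at an unadjusted p under 0.05. DESeq2 called 6 higher and 5 lower, and limma-voom 0. Over all genes tested, edgeR called 2.54%, DESeq2 15.3% and limma-voom 1.54% in either direction, and 27.3% had an unadjusted p under 0.05 by edgeR. The part of these cells in the values of Socs3, Pim1 and Pim3 was not tested.

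**Figure D4:**
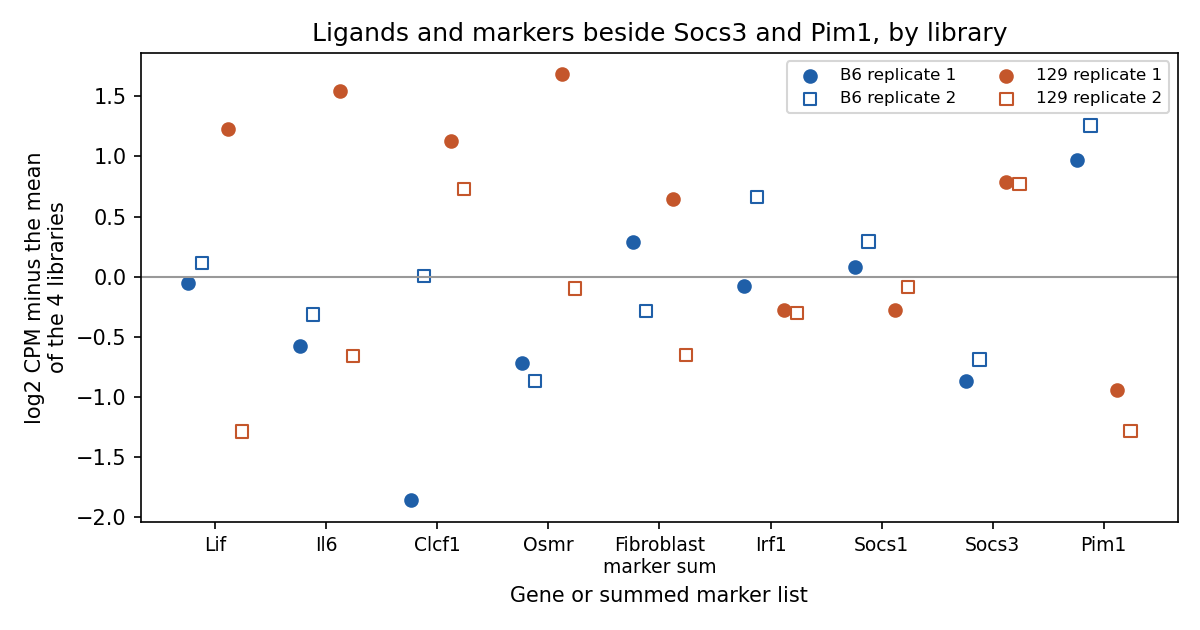
Log2 CPM of ligands, receptors, Irf1, Socs1, Socs3, Pim1 and the summed fibroblast markers in each library, minus the mean of the 4 libraries (symbols as in the plot of CPM by gene). Lif (81.9 and 14.3 CPM) and the fibroblast sum (7814 and 3180 CPM) split the 129 libraries, while Socs3 (319 and 316 CPM) does not.

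Lifr and Pim3 lie on chromosome 15, where the median gene was higher in 129. Over its 427 genes whose mean was 10 CPM or more, the median log2 fold change was 0.46, against -0.048 over the other autosomes, a value that 87.8% of the 427 genes exceeded. Relative to the chromosome median, Pim3 stood at 0.32 and Lifr at -0.51. The other tested pathway genes on chromosome 15 were Osmr, Ghr, Prlr, Csf2rb, Csf2rb2, Myc and Eif4b, with log2 fold changes of 1.84, 0.47, 2.59, 7.13, 1.94, 1.64 and 0.26. Relative to the chromosome median, Eif4b stood at -0.20, Ghr, the growth hormone receptor, at 0.0074, and the other 5 at 1.185 to 6.67. The other 8 of the 10 genes lie on chromosomes 9, 10, 11, 13, 16, 17 and X, whose medians were between -0.14 and 0.070, and Socs3 and Pim1 stood at 1.60 and -2.22 relative to theirs. The part of this chromosome-wide difference in the values of Lifr and Pim3 was not tested.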

How the data were processed

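RNA was sequenced from mouse GS cells, with 2 libraries of B6 and 2 of 129, assigned by their titles. The authors deposited raw counts, the number of reads assigned to each gene in each library. Tools named in the submitters' processing notes are HISAT2 2.2.1, HTSeq 0.13.5, cutadapt 3.4, bcl2fastq 2.20 and DESeq2 1.30.1, with build mm10 and no settings. Per the labels' protocols, single reads of 76 bp came from a stranded mRNA kit. The sources used here do not state the annotation release or how strand was treated in counting. Build mm10 derives from B6, so reads of 129 can be lost where the strains differ in sequence, which was not tested.

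The counts were fitted in edgeR 4.0.16 (R 4.3.3) with filterByExpr, TMM factors between 0.982 and 1.04 and the quasi-likelihood test (robust fit) between strains. Benjamini-Hochberg adjustment ran over the 16005 genes tested, and a call is an adjusted p under 0.05. Each SE was computed from the log2 fold change and the square root of its F statistic. The variance behind it was estimated with information from all genes tested, so it is not the spread of that gene's libraries alone. The common biological coefficient of variation was 0.309. CPM use TMM-scaled totals, and log2 CPM a prior count of 2. Tested on simulated data, the fit made a larger share of false calls than its threshold of 0.05 allows. The floor of 3 counts covers counting error only. Libraries of a strain were not duplicates (chi-square per gene 55.2 in B6 and 70.4 in 129). Positions and exon lengths came from GENCODE M21 (GRCm38, the assembly of mm10), which holds 99.85% of the identifiers, promoter windows from RefSeq.

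The genes and lists were chosen with earlier results of these data known. Named genes were the 10 members, every called gene of the other lists, the 2 most abundant tested genes of a list without calls, and the 5 nearest to Socs3. Some genes that this rule names are not reported here. Lif, Il6, Irf1, Myc, Jak1, Jak2, Tyk2 and the chromosome 15 receptors Ghr, Prlr and Csf2rb2 fall outside this rule and were picked with their values in view. Bcl6, Socs4, Cntfr, Stat6 and genes named only as untested or overlapping also fall outside it. The alternatives changed the scaling (DESeq2 size factors, library totals, upper-quartile factors), the filter (none, or at least 10 CPM in 2 libraries, the stricter one), the tool (DESeq2 1.42.0, or limma-voom with limma 3.58.1) or the samples (each library left out in turn), or added a replicate block. A comparison of protein sequences was planned and not analysed here.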

Additional observations from a re-analysis of the deposited data

How the results depend on the processing

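Of the 10 genes, Socs3, Pim1, Pim3, Il6st, Socs1 and Socs2 kept their direction in every alternative that gave a value, and Lifr, Stat3, Cish and Pim2 turned when 1 library was left out (Lifr was also at 0 to 2 decimals with library totals). The log2 fold change of Il6st ranged from 0.27 to 0.64, of Socs1 from -0.48 to -0.27 and of Pim3 from 0.67 to 0.83. Over all genes, 406 were called, against 903 with upper-quartile factors, 969 with library totals, 2130 with no filter, 141 with the stricter filter, 2455 with DESeq2, 246 with limma-voom, and 0 to 926 with a library left out (0 without B6 replicate 1, where 3317 genes had an unadjusted p under 0.05 in edgeR). The other pathway genes gave 8 calls (6 higher, 2 lower), 19 with no filter (13 and 6), 23 with DESeq2 (15 and 8), and 0 to 15 with a library left out (0 to 12 higher, 0 to 3 lower). The cause was not tested. With a library left out, the lone sample of its strain is assumed to vary like the other strain. The replicate block gave 753 calls over all genes and 8 among the other pathway genes. Libraries of the same number had a correlation of deviations of -0.014 across genes. This shows no common shift over all genes, but it cannot exclude a shared batch that acts on some genes only. No scaling moved the median of all genes by over 0.1. Socs2, at 46 to 144 counts, is the gene whose depth limits it most.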

Other observations

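The promoter windows of the other pathway genes held TTCNNNGAA in 12 of 83 genes with a window (14.5%), and those of the STAT3 target list in 5 of 23 (21.7%), against 9.55% of all genes with a window. Bcl6, a transcriptional repressor and STAT5 target, held 3 matches in 1 window, at 168, 122 and 88 bases before the start. Another of its windows held a match at 118 bases before the start of that window's transcript. The log2 fold change of Bcl6 was 0.15 (SE 0.26). None of the 5 called pathway genes with a window held a match. These are descriptions of letters in windows of 300 bases, with no test.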
